A study of Mus musculus with 6 samples.

Results

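The genes described here are 36 macrophage genes, chosen by name for what they do in resident, lipid-associated and inflammatory macrophages, out of 36144 gene symbols measured by bulk RNA-seq of whole inguinal white adipose tissue (iWAT), a subcutaneous fat depot. The libraries came from 3 Cebpa_fl/fl and 3 Cebpa_ASKO mice, all female, 10 weeks old, on a C57BL6/J background and randomly fed. Every mouse was homozygous for the floxed allele of *Cebpa*, which encodes the adipogenic transcription factor C/EBPα. The Cebpa_ASKO mice also carried AdipoQ-Cre, and the Cebpa_fl/fl controls did not. Cre is driven by the promoter of *Adipoq*, a gene of adipocytes, so the deletion was aimed at fat cells and not at macrophages. Each library pooled both inguinal depots of a mouse after the lymph nodes had been cut out, and all libraries carried the same batch label. The libraries held between 33141769 and 49477671 estimated counts.

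Fat depots hold a standing population of macrophages. They depend on signals through the receptor CSF1R, clear dead cells and released lipid, and take on different programmes by place and by lipid load. Resident and perivascular macrophages carry scavenger and endocytic receptors such as CD163, CD206 (*Mrc1*) and LYVE1, whereas lipid-associated macrophages, best known from obese fat, carry the lipid receptor TREM2 with CD9, GPNMB, galectin-3 and osteopontin. Monocytes enter through CCR2 and its ligand CCL2. The transcription factor PU.1 sets up most macrophage genes and binds purine-rich sites around the letters GAGGAA, and C/EBP factors bind sites such as TTNNGCAA.

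The sequence before the start of 4 members is shown here because the results turn on them: *Trem2* and *Cd9*, which lay higher in every Cebpa_ASKO library, and *C1qb* and *C1qc*, neighbours that kept a near constant ratio. RefSeq's promoter table (GRCm38.p6) held 26 of the 36 genes. Capitals mark GAGGAA or GAGGAAGT on either strand. Each stretch ends where an annotated exon of the gene begins, except that of *C1qb*, which ends at the RefSeq start. The stretches are *Trem2* at chr17:48346151-48346400 (plus strand), *Cd9* at chr6:125494792-125495010 (minus strand), *C1qb* at chr4:136886201-136886450 (minus strand) and *C1qc* at chr4:136893066-136893164 (minus strand).
Trem2: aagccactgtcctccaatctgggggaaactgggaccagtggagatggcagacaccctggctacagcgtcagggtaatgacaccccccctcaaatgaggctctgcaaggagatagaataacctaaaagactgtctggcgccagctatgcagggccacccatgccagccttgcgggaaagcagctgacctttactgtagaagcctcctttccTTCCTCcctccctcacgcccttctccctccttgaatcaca
Cd9: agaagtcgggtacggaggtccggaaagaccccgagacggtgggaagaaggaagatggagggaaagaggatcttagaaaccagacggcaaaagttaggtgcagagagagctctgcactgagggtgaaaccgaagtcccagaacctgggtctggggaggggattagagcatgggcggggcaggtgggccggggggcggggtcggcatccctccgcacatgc
C1qb: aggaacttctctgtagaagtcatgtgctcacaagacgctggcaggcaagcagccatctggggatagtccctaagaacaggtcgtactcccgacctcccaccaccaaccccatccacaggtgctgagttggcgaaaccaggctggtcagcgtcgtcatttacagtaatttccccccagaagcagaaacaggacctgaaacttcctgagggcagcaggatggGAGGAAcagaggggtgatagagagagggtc
C1qc: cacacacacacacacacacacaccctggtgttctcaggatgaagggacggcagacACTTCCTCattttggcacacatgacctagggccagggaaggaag

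*Trem2* and *C1qb* each held GAGGAA once, with the first base of the match 40 and 30 bases before the RefSeq start. *C1qc* held the longer GAGGAAGT, and *Cd9* held none of these letters. In the 250 bases before the RefSeq start, read on both strands, GAGGAA was found in 13 of the 26 matched genes, or 50.0%, against 25.9% of 27025 genes in the table. Its longer form GAGGAAGT, which contains it, was found in 3 of the 26 (*C1qc*, *Retnla* and *Spp1*), or 11.5%, against 2.79% of all genes. TTNNGCAA was found in 3 of the 26 (*Cd68*, *Retnla* and *Spp1*), or 11.5%, against 10.8% of all genes. These are matches of letters in a short window.

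The deletion was visible in every library. *Cebpa* stood at 446, 463 and 496 normalized CPM (read counts scaled to library size) in the 3 control libraries and at 37.5, 45.6 and 37.1 CPM in the 3 Cebpa_ASKO libraries, and its log2 fold change was -3.55 ± 0.13 (standard error; edgeR's quasi-likelihood test, Benjamini-Hochberg adjusted p = 0.000155). The adipocyte marker *Adipoq* was present in every library, at 2293 to 3093 CPM in controls and 309 to 382 CPM in Cebpa_ASKO. Across the genome 840 of 16080 genes tested were called at an adjusted p below 0.05, or 5.22%, with 224 higher (1.39%) and 616 lower (3.83%) in Cebpa_ASKO. 1 library stood apart: Cebpa_fl/fl 1 carried 271 CPM summed over 6 B cell genes, against 2.68 to 6.19 CPM in the other 5 libraries, and 133 CPM over 8 T cell genes, against 7.58 to 20.9 CPM. The chemokine *Ccl21a*, made by lymphatic and lymph node stromal cells, was at 64.3 CPM there and at most 6.76 CPM elsewhere. Results that rest on this library are given with and without it.

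Of the 36 genes, 35 had enough counts to be tested, and none was called between the genotypes by edgeR (0 of 35, against 5.22% of all genes). 4 of the 35 had an unadjusted p below 0.05, against 19.8% of all genes. These were *Trem2*, *Cd9* and *Lgals3*, higher in Cebpa_ASKO, and *Marco*, lower. DESeq2, which called 10.0% of all genes, called 1 member, *Cd9*, as did limma on log2(TPM + 1), which called 4.62%. Fitted values were higher in Cebpa_ASKO for 24 members and lower for 11, with a median log2 fold change of 0.12, against 0.02 over all genes tested. The libraries of the genotypes did not overlap for 5 of the 35 members, against 26.1% of all genes. Of the 35, 4 lay higher in Cebpa_ASKO without overlap, as did 12.9% of all genes. Summed over the 36 genes, the libraries held 3063, 5248 and 2199.5 CPM in controls and 3487, 3428 and 4471 CPM in Cebpa_ASKO, or 3504 ± 1571 against 3795 ± 586 CPM (SD, n = 3 each). All 3 Cebpa_ASKO sums lay within the range of the control sums. In bulk tissue, a change in macrophage number and a change in RNA per macrophage cannot be told apart. P-values here measure the spread between these mice.

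**Figure D1:**
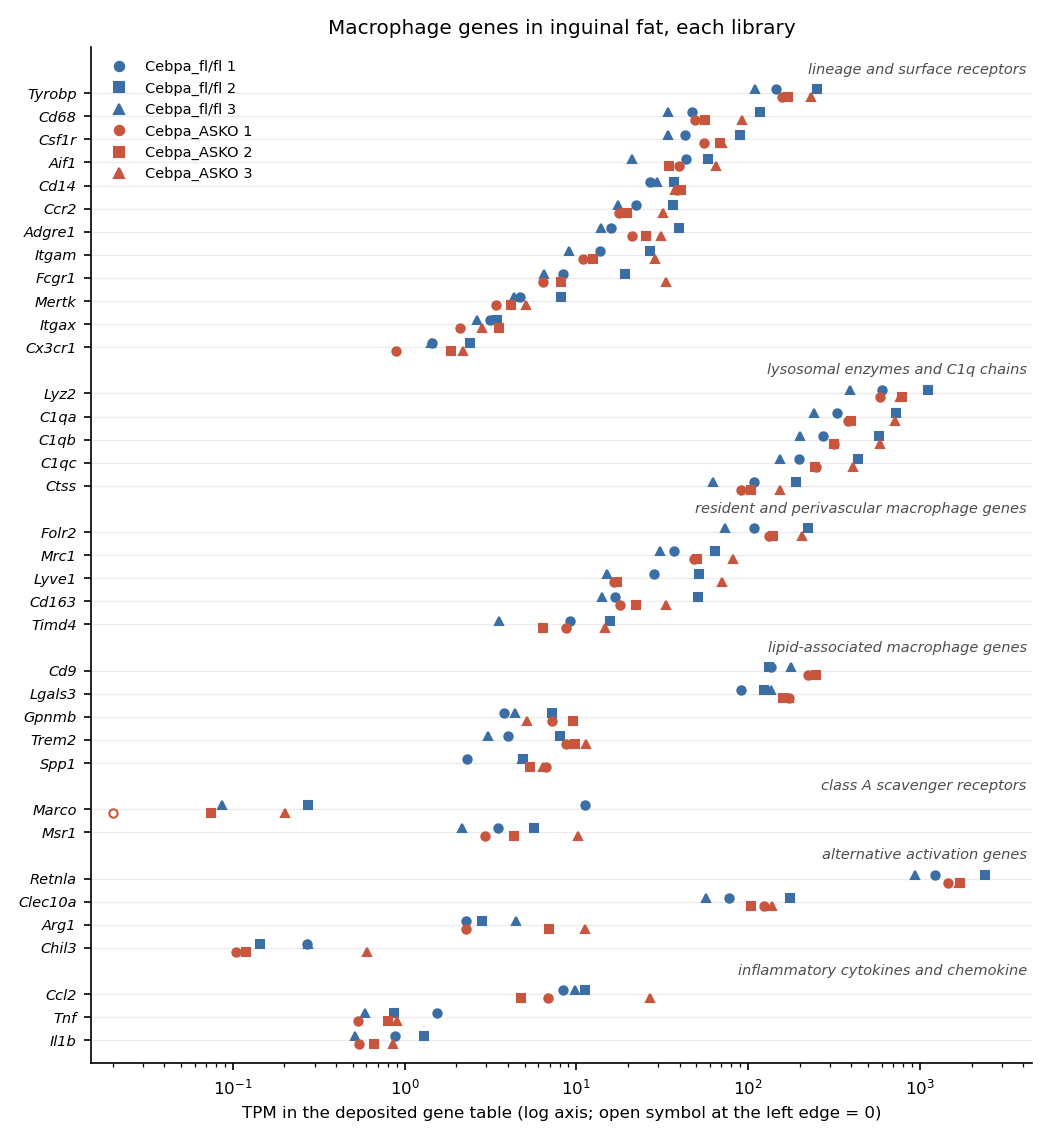
Level of each of the 36 macrophage genes in every library, as TPM in the authors' gene table on a log axis, with blue symbols for Cebpa_fl/fl, red symbols for Cebpa_ASKO and the symbol's shape for the replicate. Blue squares (Cebpa_fl/fl 2) sit at or near the right end and blue triangles (Cebpa_fl/fl 3) at the left end for most genes, with the red symbols between them. The open symbol for *Marco* is a library at 0.

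For most members the range among controls was larger than the fitted difference between genotypes. The highest control exceeded the lowest by a median of 2.51-fold over the 35 genes, while the median difference between genotypes, in either direction, was 1.15-fold. The control range was the larger of these in 33 of the 35 genes. A range of 3 libraries and a ratio of fitted means are unlike measures. The same count was not taken over all genes, so this is not shown to be particular to the members. Among controls, Cebpa_fl/fl 2 was the highest library for 29 of the 35 genes and Cebpa_fl/fl 3 the lowest for 28. Of all 6 libraries, Cebpa_fl/fl 2 was the highest for 18 genes and Cebpa_fl/fl 3 the lowest for 22. Cebpa_ASKO 3 was the highest of its genotype for 26 genes. Without Cebpa_fl/fl 2 the median log2 fold change of the members was 0.49, without Cebpa_fl/fl 3 it was -0.15, and without Cebpa_ASKO 3 it was -0.17. The 95% interval of a member's log2 fold change had a median half-width of 0.90. For a typical member a smaller fitted change could thus not be told from 0, even before adjustment over all genes. A larger one need not be called, as *Trem2* at 0.91 was not (adjusted p = 0.195, edgeR).

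Cebpa_fl/fl 2 also held the most fibroblast transcript. Summed over 8 fibroblast and progenitor genes, the controls held 7229, 12424 and 7022 CPM and the Cebpa_ASKO libraries 8806, 8504 and 10004 CPM. Adipocyte genes, 8 in all, summed to 16994 to 19862 CPM in controls and to 6844 to 9175 CPM in Cebpa_ASKO. Skeletal muscle genes, also 8, rose from 528 to 698 CPM in controls to 1816 to 5134 CPM in Cebpa_ASKO, and all 8 were called. CPM is a share of the library, and the part of these other cells in the macrophage values was not tested.

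The lineage and surface receptor genes of macrophages were fitted in both directions, most with wide intervals. Of these 12 genes 7 were fitted higher and 5 lower in Cebpa_ASKO, with a median log2 fold change of 0.04, and none was called. *Adgre1*, which encodes the F4/80 antigen, stood at 40.9, 93.1 and 32.8 CPM in controls and 53.2, 58.8 and 69.0 CPM in Cebpa_ASKO. The receptor gene *Csf1r* stood at 141, 265 and 106 CPM in controls and 183, 199 and 199 CPM in Cebpa_ASKO, a log2 fold change of 0.18 with a 95% interval from -0.58 to 0.94. For both genes the Cebpa_ASKO libraries lay between Cebpa_fl/fl 2 and the other controls. *Cd68*, a lysosomal membrane protein of macrophages, stood at 43.3, 96.1 and 29.9 CPM against 45.7, 44.0 and 71.0 CPM, and its interval ran from -1.11 to 0.96. *Itgam*, the CD11b integrin chain, stood at 53.9, 95.5 and 34.1 CPM in controls against 43.3, 43.7 and 98.3 CPM. The high-affinity IgG receptor gene *Fcgr1* stood at 13.9, 26.9 and 10.5 CPM against 13.6, 11.4 and 43.1 CPM. In *Itgam* and *Fcgr1* a single Cebpa_ASKO library, the third, was higher than any control. *Tyrobp*, the signalling adaptor of TREM2 and related receptors, had a log2 fold change of 0.08 (interval -0.59 to 0.76), and *Aif1*, which encodes IBA1, one of 0.07 (interval -0.90 to 1.03).

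*Mertk*, a receptor tyrosine kinase for the uptake of dying cells, was the 1 member of this group whose libraries did not overlap. It stood at 16.0, 25.8 and 14.9 CPM in controls and at 11.7, 13.0 and 14.9 CPM in Cebpa_ASKO. The highest Cebpa_ASKO library and the lowest control were equal to 3 digits, in TPM the genotypes overlapped, and the log2 fold change was -0.52 (interval -1.06 to 0.02, adjusted p = 0.270, edgeR). *Itgax*, the CD11c integrin chain found on dendritic cells and on macrophages of obese fat, stayed low in every library, at 7.11 to 9.14 CPM in controls and 6.48 to 8.06 CPM in Cebpa_ASKO. The endotoxin co-receptor gene *Cd14* had one of the tightest estimates, 33.4, 41.2 and 34.1 CPM against 46.4, 43.3 and 38.5 CPM, a log2 fold change of 0.24 with an interval from -0.04 to 0.52. *Ccr2*, the receptor of entering monocytes, stood at 67.0, 96.8 and 48.0 CPM in controls and 52.4, 51.4 and 80.8 CPM in Cebpa_ASKO. The fractalkine receptor gene *Cx3cr1* was low throughout, between 2.84 and 6.86 CPM.

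Genes of secreted and lysosomal macrophage proteins were among the most abundant members. By TPM, which corrects for transcript length, the control means were 1520 for *Retnla*, 705 for *Lyz2*, 433 for *C1qa*, 350 for *C1qb* and 263 for *C1qc*, followed by 169 for *Tyrobp* and 149 for *Cd9*. *Lyz2*, lysozyme, stood at 612, 1018 and 370.2 CPM in controls and 594, 693 and 666 CPM in Cebpa_ASKO (log2 fold change -0.03, interval -0.85 to 0.78). *Lyz1*, a near copy that can share its reads, stood at 0.0995 to 0.121 of *Lyz2* in controls and 0.0630 to 0.0702 in Cebpa_ASKO. *Ctss*, the protease cathepsin S, stood at 61.4 to 177 CPM in controls and 94.8 to 137 CPM in Cebpa_ASKO.

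*C1qa*, *C1qb* and *C1qc* encode the chains of complement C1q and lie within 18675 bases of chromosome 4 (GRCm38, 136880129 to 136898803). *C1qa* stood at 254, 501 and 173 CPM in controls and 294, 264 and 472 CPM in Cebpa_ASKO. *C1qb* followed at 222, 417 and 151 CPM and at 257, 225 and 406 CPM. The ratio of *C1qa* to *C1qb* counts stayed between 1.14 and 1.20 in all 6 libraries and that of *C1qc* to *C1qb* between 0.785 and 0.883, while the levels themselves varied 2.75-fold among controls for *C1qb*. The log2 fold changes were 0.15, 0.17 and 0.15, with intervals reaching from -0.84 to 1.14 for *C1qa*. The libraries thus differed in the amount of C1q transcript and hardly in the proportion of its chains.

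Among controls, the resident and perivascular genes kept the same order, with Cebpa_fl/fl 2 highest and Cebpa_fl/fl 3 lowest for each. Of the 5 genes 4 were fitted higher and 1 lower, with a median log2 fold change of 0.03. *Mrc1*, the mannose receptor, stood at 164, 255 and 124 CPM in controls and 201, 192 and 299.8 CPM in Cebpa_ASKO, a log2 fold change of 0.35 (interval -0.35 to 1.06). The haemoglobin scavenger receptor gene *Cd163* stood at 57.1, 150.1 and 42.5 CPM against 56.8, 64.5 and 94.4 CPM. *Folr2*, a folate receptor of resident macrophages, stood at 79.5, 146 and 51.7 CPM against 97.9, 89.0 and 128 CPM. In all 3 genes the groups overlapped, with Cebpa_fl/fl 3 the lowest of all libraries. *Lyve1*, a hyaluronan receptor shared with lymphatic endothelium, had the widest relative spread of these 5 genes within Cebpa_ASKO, at 37.5, 32.8 and 140.1 CPM against 64.7, 107 and 34.2 CPM in controls, and its log2 fold change of 0.03 became -0.99 without Cebpa_ASKO 3. *Timd4*, the phosphatidylserine receptor TIM-4 of long-lived resident macrophages, stood at 16.4, 24.8 and 5.93 CPM in controls and 15.4, 9.89 and 22.2 CPM in Cebpa_ASKO.

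All 5 lipid-associated genes were fitted higher in Cebpa_ASKO, against 53.9% of all genes, with a median log2 fold change of 0.61. Of the 5, 4 lay higher without overlap (80.0%), against 12.9% of all genes. The list was chosen with earlier results of these data known, so these shares do not test it. None of the 5 was called by edgeR, and 3 had an unadjusted p below 0.05. Of 10 further lipid-associated genes, described below, 6 were fitted lower and 3 were called lower, against 3.83% of all genes. *Trem2* (chromosome 17, 48346401 to 48354147, GRCm38) stood at 3.53, 6.33 and 2.55 CPM in controls and 7.83, 7.09 and 8.34 CPM in Cebpa_ASKO. Every Cebpa_ASKO library exceeded every control, and the gap was narrowest to Cebpa_fl/fl 2, the control with the most macrophage transcript. The values rest on 121 to 300 counts in controls and 248 to 373 counts in Cebpa_ASKO. The log2 fold change was 0.91 ± 0.33 (standard error; interval 0.11 to 1.70, adjusted p = 0.195, edgeR), and without Cebpa_fl/fl 2 it was 1.34 and called (adjusted p = 0.0252, edgeR). With any other library left out it was 0.65 (without Cebpa_fl/fl 3) to 0.95 and not called (adjusted p from 0.285 to 0.400, edgeR).

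*Cd9* (chromosome 6, 125460266 to 125494791, GRCm38), a tetraspanin of lipid-associated macrophages that many other cells also make, stood at 128, 111 and 156 CPM in controls and 207, 203 and 194 CPM in Cebpa_ASKO. Every Cebpa_ASKO library exceeded every control, with means of 201 ± 6.78 against 132 ± 22.8 CPM (SD, n = 3 each). Its difference in log2 was 0.61 ± 0.14 (standard error; interval 0.29 to 0.94) and just missed the threshold (adjusted p = 0.0565, edgeR). It was called by DESeq2 (adjusted p = 0.00344) and in 5 of 18 settings in all. *Lgals3*, galectin-3, stood at 75.7, 91.5 and 106 CPM in controls and 139.6, 111 and 121 CPM in Cebpa_ASKO, a log2 fold change of 0.44 (interval 0.08 to 0.80, adjusted p = 0.168, edgeR). *Spp1*, osteopontin, was low, at 2.55, 4.83 and 4.68 CPM against 7.26, 5.19 and 5.99 CPM, with a log2 fold change of 0.61 (interval -0.07 to 1.29, adjusted p = 0.301, edgeR). For *Spp1* and *Lgals3* the lowest Cebpa_ASKO library lay just above the highest control. *Gpnmb*, a lysosomal glycoprotein, overlapped, at 11.2, 19.9 and 11.4 CPM in controls and 21.8, 24.8 and 13.1 CPM in Cebpa_ASKO.

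**Figure D2:**
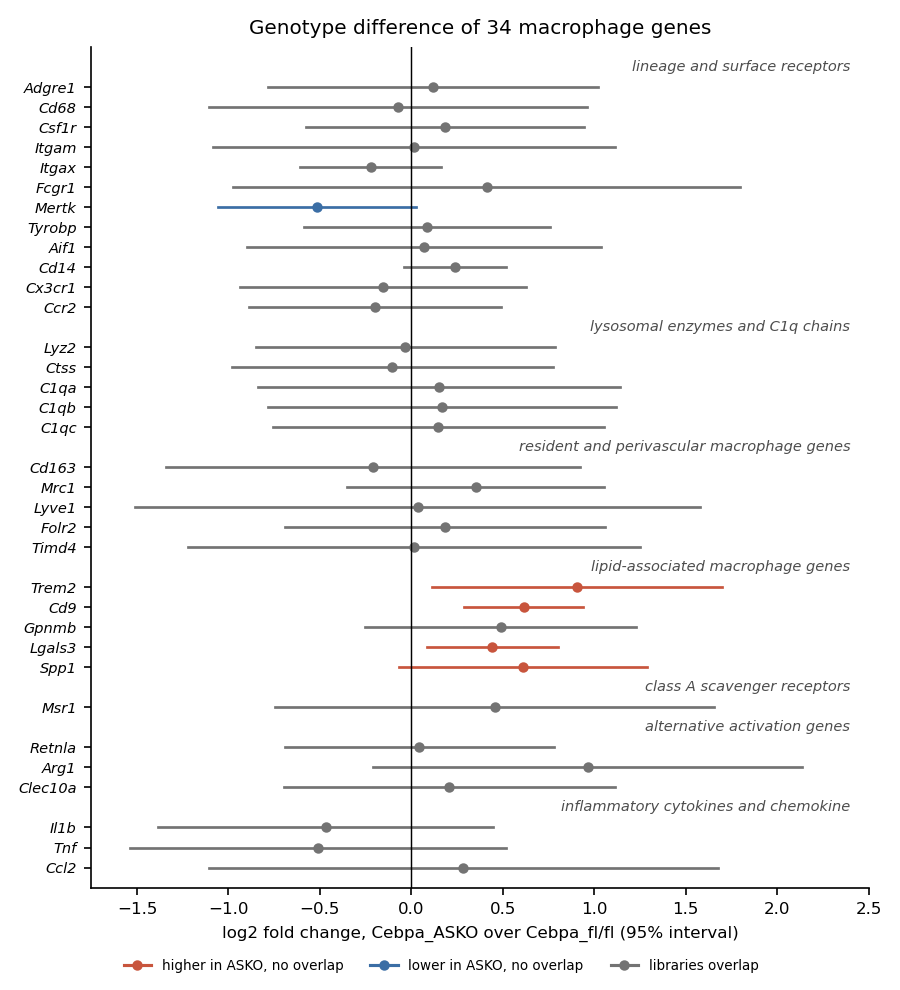
Fitted log2 fold change of Cebpa_ASKO over Cebpa_fl/fl (points) with its 95% interval (lines) for 34 of the 35 tested macrophage genes, coloured where the libraries of the genotypes did not overlap. The intervals of *Trem2*, *Cd9* and *Lgals3* lie above 0 and that of *Mertk* reaches just past 0, and most others span 0 widely. *Marco* (log2 fold change -5.48) lies off the axis and is left out.

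Because the amount of macrophage transcript varied between mice, each member was also divided by the summed CPM of 5 core macrophage genes (*Adgre1*, *Csf1r*, *Cd68*, *Fcgr1* and *Mertk*) of the same library. The core summed to 255, 506 and 194 CPM in controls and 307, 326 and 397 CPM in Cebpa_ASKO. *Trem2* amounted to 1.38%, 1.25% and 1.32% of the core in controls and 2.55%, 2.18% and 2.10% in Cebpa_ASKO. On this scale the controls lay close together and well below the Cebpa_ASKO libraries, a difference of 0.79 in log2 ratio (exact two-sided permutation p = 0.1, the smallest that 20 arrangements of 6 libraries allow). Against the C1q chains *Trem2* stood at 0.536%, 0.497% and 0.560% in controls and 1.01%, 1.04% and 0.697% in Cebpa_ASKO, again without overlap. On the C1q scale 5 of 31 members did not overlap, or 16.1%, against 5.90% of all genes divided in the same way. *Trem2* was higher and *Cd68*, *Mertk*, *Ccr2* and *Il1b* were lower in Cebpa_ASKO. The highest Cebpa_ASKO library lay just below the lowest control for *Cd68* (6.42% against 6.56%), *Mertk* (1.90% against 2.02%) and *Ccr2* (7.50% against 7.59%). On either scale, genes that vary with the divisor can separate more readily than other genes. The share over all genes is thus not a like measure.

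*Cd9*, *Lgals3* and *Spp1* overlapped on the scale of the core. *Cd9* amounted to 50.0%, 21.9% and 80.5% of the core in controls and to 67.5%, 62.2% and 48.8% in Cebpa_ASKO. *Lgals3* amounted to 29.7%, 18.1% and 54.9% in controls and 45.5%, 34.0% and 30.5% in Cebpa_ASKO. Both had their lowest share in Cebpa_fl/fl 2, where the core was highest, and their highest in Cebpa_fl/fl 3, where it was lowest. The cytokine gene *Il1b* was the other member without overlap on this scale, at 0.365%, 0.242% and 0.261% of the core in controls and 0.185%, 0.187% and 0.186% in Cebpa_ASKO, but it rests on 18 to 58 counts a library. In all, 2 of the 29 members that could be set against the core did not overlap, or 6.90%, against 7.07% of all genes divided in the same way.

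**Figure D3:**
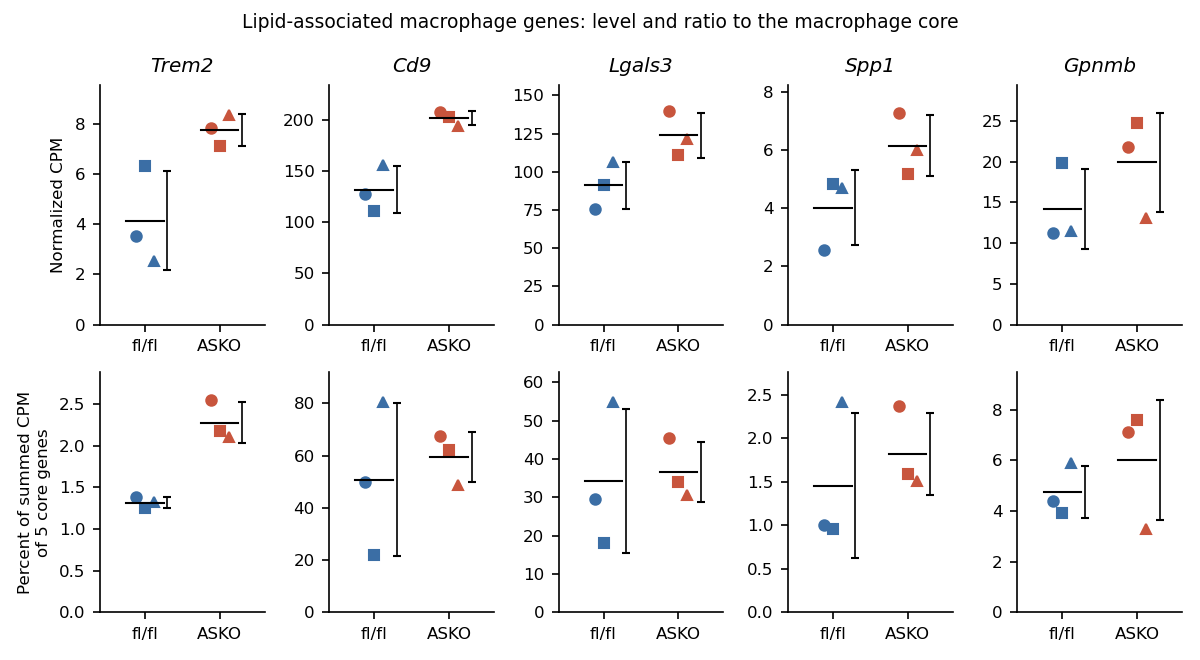
Normalized CPM (upper row) and percent of the summed CPM of 5 core macrophage genes (lower row) for the 5 lipid-associated genes, with a symbol for each library as above (circle, square and triangle for replicates 1, 2 and 3), a horizontal bar for the mean and an error bar of 1 SD (n = 3 each). *Trem2* is apart in both rows, at 1.25% to 1.38% of the core in controls and 2.10% to 2.55% in Cebpa_ASKO, whereas *Cd9*, *Lgals3* and *Spp1* are apart only in the upper row.

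Several of these genes are also made outside macrophages. Mammary epithelium, which lies in the inguinal depot of female mice, was fitted in the same direction. Its 6 marker genes summed to 823, 592 and 1189 CPM in controls and 1646, 1512 and 1675 CPM in Cebpa_ASKO. All 6 were fitted higher, against 53.9% of all genes, and 3 lay higher without overlap, against 12.9% of all genes. None was called by edgeR, though 5 had an unadjusted p below 0.05, against 19.8% of all genes. Among controls the order of this sum, lowest in Cebpa_fl/fl 2 and highest in Cebpa_fl/fl 3, was also that of *Cd9*. Within Cebpa_ASKO the orders differed, as the sum was highest in Cebpa_ASKO 3, where *Cd9* was lowest. *Lgals3* and *Spp1* did not follow the sum among controls, as both were lowest in Cebpa_fl/fl 1. The part of epithelium in the levels of *Cd9*, *Lgals3* and *Spp1* was not tested. Mast cell genes, 6 of 6 fitted higher and none called, summed to 76.2 to 219 CPM in controls and 165 to 228 CPM in Cebpa_ASKO. Neutrophil genes stayed between 4.16 and 7.80 CPM in every library, summed over 6 genes.

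**Figure D4:**
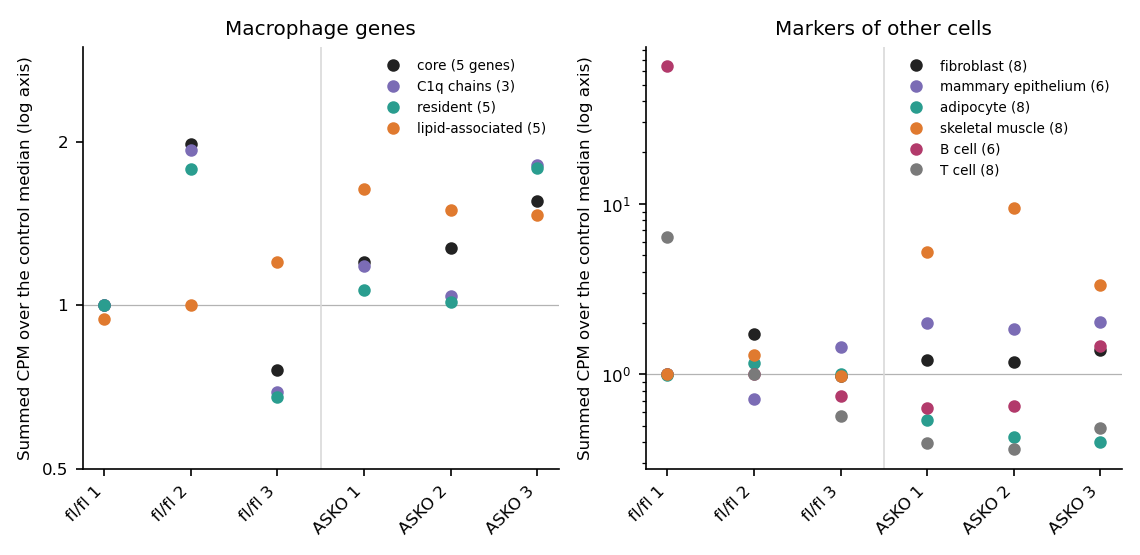
Summed CPM of gene lists in each library, divided by the median of the 3 controls, on log axes, with macrophage lists on the left and markers of other cells on the right (number of genes in brackets). The core, C1q and resident sums are each highest in Cebpa_fl/fl 2 and lowest in Cebpa_fl/fl 3 among controls. Within Cebpa_ASKO they are highest in Cebpa_ASKO 3. The lipid-associated sum is higher in the 3 Cebpa_ASKO libraries (343 to 384 CPM) than in the controls (221 to 281 CPM). Most of it is *Cd9* and *Lgals3* (means of 201 and 124 CPM of 359 CPM in Cebpa_ASKO), which overlapped when divided by the core. B and T cell markers are highest in Cebpa_fl/fl 1.

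The class A scavenger receptors were *Msr1* and *Marco*. *Msr1* stood at 8.67, 11.3 and 4.66 CPM in controls and 7.45, 6.53 and 19.8 CPM in Cebpa_ASKO. *Marco*, a receptor of lymph node and marginal zone macrophages, stood at 17.7, 0.380 and 0.127 CPM in controls and 0.00, 0.102 and 0.268 CPM in Cebpa_ASKO. Its level was thus high only in Cebpa_fl/fl 1, the library with the B cell, T cell and *Ccl21a* transcripts. The log2 fold change of -5.48 (adjusted p = 0.202, edgeR) became -0.93 without that library (adjusted p = 0.767, edgeR).

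Of the alternative activation genes *Retnla* and *Clec10a* were abundant and *Arg1* and *Chil3* were scarce. *Retnla*, the resistin-like molecule RELMα induced by type 2 cytokines, was the member with the highest TPM and stood at 458, 801 and 329 CPM in controls and 544, 553 and 538 CPM in Cebpa_ASKO (log2 fold change 0.04, interval -0.69 to 0.78). The SD was 7.32 CPM over the 3 Cebpa_ASKO libraries and 244 CPM over the controls. The lectin gene *Clec10a* stood at 84.3, 171 and 57.8 CPM against 132, 98.4 and 130.2 CPM. *Arg1*, arginase 1, had the largest positive log2 fold change of the members, 0.96, but its libraries overlapped, at 2.66, 2.93 and 4.58 CPM in controls and 2.62, 6.69 and 10.5 CPM in Cebpa_ASKO (interval -0.21 to 2.14). *Chil3*, the chitinase-like protein Ym1, was the member too low to test, at 0.106 to 0.211 CPM in controls and 0.126 to 0.626 CPM in Cebpa_ASKO.

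Inflammatory cytokine genes were among the lowest members in both genotypes. *Il1b* stood at 0.932, 1.22 and 0.506 CPM in controls and 0.568, 0.610 and 0.738 CPM in Cebpa_ASKO, and *Tnf* at 2.02, 1.01 and 0.717 CPM against 0.695, 0.915 and 1.01 CPM. The log2 fold change of *Tnf*, -0.51, became 0.02 without Cebpa_fl/fl 1. The monocyte chemoattractant gene *Ccl2* was even among controls, at 4.75, 5.83 and 5.42 CPM, and uneven in Cebpa_ASKO, at 3.92, 2.44 and 13.1 CPM. The third Cebpa_ASKO library, which was also high for *Fcgr1*, *Itgam*, *Lyve1* and *Msr1*, set its mean.

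A further 94 genes of macrophage biology gave the surroundings of the members. Of the 88 tested 4 were called, all lower in Cebpa_ASKO, or 4 of 88 against 3.83% of all genes called lower, and the median log2 fold change was 0.01. *Acp5*, the acid phosphatase TRAP, fell from 325 to 357 CPM in controls to 91.2 to 112 CPM in Cebpa_ASKO, a log2 fold change of -1.80 (adjusted p = 0.000780, edgeR). *Fabp5*, a fatty acid binding protein, had a log2 fold change of -2.36 (adjusted p = 0.00260, edgeR), *Lpl*, lipoprotein lipase, -1.34 (adjusted p = 0.00987, edgeR) and *Apoe*, apolipoprotein E, -0.81 (adjusted p = 0.0434, edgeR). *Lpl* stood at 3975 to 4595 CPM in controls and *Apoe* at 2037 to 2610 CPM, far above any lineage gene. Adipocytes as well as macrophages make *Lpl*, *Fabp5* and *Apoe*, and the part of each cell type in these levels was not tested. *Acp5* varied less among controls than the 5 core macrophage genes, which summed to 194 to 506 CPM there. Which cells the *Acp5* transcript came from was not tested either. The call of *Apoe* was lost without any library other than Cebpa_fl/fl 2 (adjusted p from 0.0681 to 0.173, edgeR), and that of *Lpl* without Cebpa_ASKO 2 (adjusted p = 0.0640, edgeR). The call of *Apoe* was also lost with total count scaling, with limma in each of its 3 settings and with the replicate number as a block (adjusted p from 0.0645 to 0.242, edgeR and limma), and that of *Lpl* was lost with the block (adjusted p = 0.0826, edgeR). *Fabp5*, *Lpl* and *Apoe* belong to the 10 further lipid-associated genes, of which 3 were called, all lower. These 10 genes had 4 fitted higher and 6 lower, with a median log2 fold change of -0.13. Their summed level had a mean of 8893 CPM in controls and 4872 CPM in Cebpa_ASKO. DESeq2 called 12 of the 92 genes of the whole list that it tested, against 10.0% of all genes. Of these 12 genes, 4 were higher in Cebpa_ASKO.

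Of the ligands of CSF1R, *Csf1* stood at 69.4, 84.5 and 56.0 CPM in controls and 85.8, 73.5 and 119 CPM in Cebpa_ASKO, with a log2 fold change of 0.41 (interval -0.11 to 0.93). *Il34*, the other ligand, stood at 10.3, 20.6 and 10.3 CPM in controls and 8.24, 10.1 and 8.92 CPM in Cebpa_ASKO, without overlap but not called (log2 fold change -0.59, adjusted p = 0.331, edgeR). Other lineage genes such as PU.1 and the Fc receptors, 22 in all, had 14 fitted higher and 8 lower, with a median of 0.12 and no call. Antigen presentation by MHC class II had 0 of 7 genes fitted higher and a median of -0.13, with no call. Type 2 signals had 6 of 7 tested genes fitted higher, a median of 0.62, 1 gene with an unadjusted p below 0.05 and no call. The alarmin *Il33*, named after its values were seen, stood at 31.8, 28.9 and 20.5 CPM in controls and 48.4, 37.8 and 39.8 CPM in Cebpa_ASKO (log2 fold change 0.63, adjusted p = 0.114, edgeR). Myeloid chemokines and further inflammatory genes had medians of -0.01 and 0.05 and no call.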

How the data were processed

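Whole iWAT RNA from 3 Cebpa_fl/fl and 3 Cebpa_ASKO mice was poly-A selected and sequenced. The authors deposited kallisto 0.44.0 output, an estimated count per transcript, and TPM, a length-corrected share, summed by the authors for each gene symbol. The submitters' processing notes name the builds GRCm38.p6 and GRCh38.p12. The study used DESeq2 on these data.

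Estimated counts were summed per gene symbol by GENCODE M21 (GRCm38) and rounded. kallisto divides reads between identical transcripts, so 872 second copies without annotation, with equal length and equal counts in all libraries, were added back to 234 symbols. This doubled *Trem2*. Replicates differed by far more than sampling noise (chi-square over its degrees of freedom, 27.7 to 239). Genotypes were compared with edgeR 4.0.16 (R 4.3.3) by the quasi-likelihood test with TMM scaling and the default count filter, and adjusted p-values are Benjamini-Hochberg over 16080 genes. Intervals are 95%. CPM is TMM-normalized. Ratios were compared with an exact two-sided permutation test. Alternatives used DESeq2 1.42.0, limma 3.58.1 on log2(TPM + 1) or log2(TPM + 0.1), other scalings and filters, the replicate number as a block, and each library left out in turn. The edgeR step was tested on simulated data. Named genes are all 36 members, called genes of the further list, *Csf1*, *Il34*, *Cebpa* and close copies. *Adipoq* is named as a marker of other cells, and *Ccl21a* and *Il33* were chosen after their values were seen. Members and lists were chosen with earlier results of these data known.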

Additional observations from a re-analysis of the deposited data

How the results depend on the processing

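Against 840 genes called, DESeq2 called 1793, limma without a filter 359, and the fit with the replicate number as a block 369; leaving out 1 library gave 314 to 918, lowest without Cebpa_ASKO 1. Against 0 members called, DESeq2, total count scaling and limma with either pseudocount (filtered) each called 1, *Cd9*. Leaving out 1 library called 0 to 1, *Trem2* without Cebpa_fl/fl 2 and *Cd9* without Cebpa_fl/fl 3. Against 4 further genes called, DESeq2 called 12 of 92 tested, where it called 10.0% of all genes. The block called 2 and the libraries left out in turn 2 (without Cebpa_ASKO 2) to 8 (without Cebpa_fl/fl 2). The causes were not tested. The fitted direction changed in at least 1 of the 18 settings for 23 members, among them 1 (*Lyz2*) with other scalings of the counts, 6 (*Cd68*, *Lyz2*, *Ctss*, *Cd163*, *Lyve1* and *Ccl2*) with limma on TPM and 1 (*Itgam*) with the length offset. It held for 12, among them the 5 lipid-associated genes. The summed level of the members in Cebpa_ASKO was 1.08 times that of controls, and 0.913 to 1.44 times with 1 library left out. Same-numbered libraries did not deviate together (correlations 0.06, 0.03 and -0.20), and differently numbered ones gave -0.18 to 0.15. With 3 libraries a genotype this cannot tell whether the numbers pair the mice. Without the second copies of transcripts, chosen after seeing the data, 840 genes and 0 members were called. With 3 mice a genotype, a typical member's interval (half-width 0.90 in log2) spans 0 for smaller fitted changes. Larger ones can also miss the adjusted threshold.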
